A study of Mus musculus with 6 samples.

Results

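Single bone marrow-derived macrophages without Rad21 were compared with wild-type macrophages, both after 2 h of exposure to bacterial lipopolysaccharide (LPS). All cells that carried the label of either genotype at 2 h were taken, and wells with a sum above 25000 unique molecular identifiers (UMIs, one per counted transcript molecule) were left out. This kept 365 of the 372 cells at this time, 184 Rad21-/- and 181 wild-type, out of 1362 cells in the whole series. Every gene in the matrix of 18429 genes was considered, whether or not it responds to LPS.

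Both genotypes carried creERT2 on both alleles of the rosa26 locus, so a tamoxifen-dependent Cre recombinase was present in the wild-type cells too. The mice were of a mixed genetic background, with wild-type Rad21 alleles or with both alleles floxed (Rad21 lox/lox), and 200 nM of 4-hydroxytamoxifen was given to both genotypes 96 h into culture. LPS was added at 10 ng/ml at day 7. Untreated cells and cells at 8 h of LPS, again 1 sample per genotype, are given beside the 2 h values where they bear on them. Each genotype and time was a single sample, and nothing states from how many mice or dishes a sample came. There was therefore no test and no replicate check, and a difference of genotype and a difference of culture cannot be told apart. Genes were counted by a fixed size of 2-fold, and intervals are exact 95% intervals that cover counting error only.

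Rad21 is a subunit of cohesin, the ring-shaped complex that holds sister chromatids together in dividing cells and extrudes loops of chromatin in interphase. Macrophages sense LPS through Toll-like receptor 4, which activates NF-kappaB, AP-1 and interferon regulatory factors. The first wave of this response encodes chemokines, cytokines and feedback inhibitors, and secreted interferon beta then drives interferon-stimulated genes through the receptor on the same and neighbouring cells. Resting macrophages already express part of the interferon programme at a tonic level.

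The retained cells held 1248357 UMIs in the Rad21-/- sample and 1197415 in the wild-type sample, with a median of 5982.5 and 5892 UMIs per cell. The 7 wells left out held 45.5% of all wild-type UMIs at 2 h and 11.9% of the Rad21-/- UMIs. The deepest wells retained had 21137, 21185 and 21368 UMIs, and the shallowest ones left out had 25105, 69378 and 72517. Most cells came from 4 library pools that mixed both genotypes, with 41 to 46 wild-type and 41 to 46 Rad21-/- cells each, and 15 cells came from 4 smaller pools. Pools are batches of library preparation and not separate cultures. No pool and well name was used by more than 1 cell.

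Rad21 itself (chr15:51962604-51993538, GRCm38.p6) had 61 UMIs in wild-type cells and 10 in Rad21-/- cells. The level was 50.9 CPM (interval 39.0 to 65.4; CPM is the share of a gene in all UMIs of the sample, scaled to a fixed total) and 8.01 CPM (3.84 to 14.7), a log2 ratio of -2.67 (-3.80 to -1.69). At least 1 UMI was found in 24.9% of wild-type and 5.43% of Rad21-/- cells. The wild-type level was above the Rad21-/- level in each of the 4 pools. MARS-seq counts a tag near the 3′ end of transcripts, and the sources used here do not state where that tag lies relative to the deleted part, so these values are no direct measure of the deletion.

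Of the 12 other genes of the cohesin list, 7 passed the filter, a sum of at least 100 UMIs over both samples. Genes under it, such as Rad21, were left out of all counts and medians of ratios. None was 2-fold apart. Smc3, a core subunit of the ring, had a log2 ratio of -0.43 and Nipbl, the loader, 0.40. Ctcf, which stops loop extrusion at its binding sites, was at 0.08.

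All 10 macrophage markers were detected in both samples, with a summed level of 11171 CPM in wild-type and 7411 CPM in Rad21-/- cells. The lower sum was carried by Lyz2, lysozyme, at a log2 ratio of -0.91 and by Cd14, the LPS co-receptor, at -1.90, while Csf1r, the receptor for the macrophage growth factor, was at 0.73 and Spi1, the lineage factor PU.1, at 0.06. Markers of most other cells were low. The 2 neutrophil markers in the matrix had 1 UMI in all, and the summed T cell, NK cell, mast cell, dendritic cell and fibroblast lists held between 5.85 and 50.1 CPM in either sample. The B cell list held 30.9 CPM in wild-type and 180.2 CPM in Rad21-/- cells, and Ighm had 18 of its 37 UMIs in the wild-type and 195 of its 225 in the Rad21-/- sample. The platelet list, mainly Pf4, a chemokine that macrophages also express, held 228.0 and 418.1 CPM.

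Among the 4285 genes that passed the filter, 188 (4.39%) were at least 2-fold lower in Rad21-/- than in wild-type cells at 2 h and a smaller share, 2.66%, was at least 2-fold higher. The log2 ratio, Rad21-/- over wild-type throughout, ran from -6.63 for Hist1h2ap to 3.38 for Ighm, and its median over all tested genes was 0.06. A gene close to the filter can pass through its level in 1 genotype alone, so the counts describe genes with that many UMIs and not all genes. The genes closest to the 2-fold line were Rtp4 at -1.002 and Mrps6 at -0.99999 on the lower side, and Acaa1a at 0.996 and Hscb at 1.004 on the higher side. The interval of the ratio lay wholly past 2-fold for 96 of the 188 lower genes and for 35 of the higher genes.

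**Figure D1:**
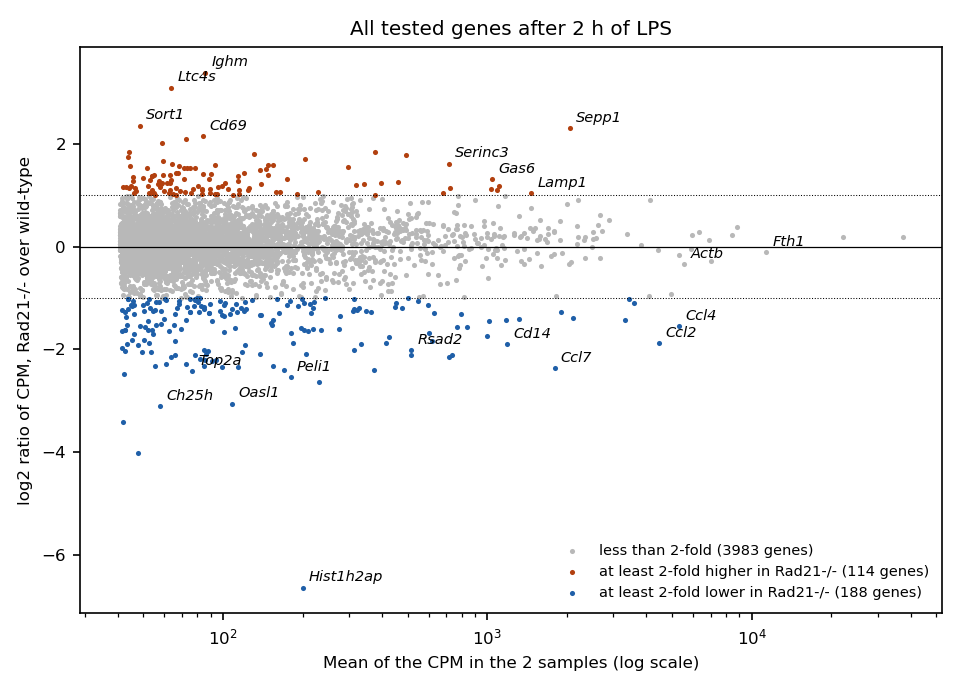
Each point is a gene with at least 100 UMIs over both samples; the horizontal axis gives the mean of its CPM in the wild-type and Rad21-/- samples on a log scale and the vertical axis its log2 ratio at 2 h. Lower genes (blue, 188) reached higher levels, with Ccl4 and Ccl2 at the right, whereas Sepp1 was the most abundant of the higher genes (orange, 2.66% of tested genes).

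The study grouped 356 LPS-inducible genes by classes A1+2 to F, which were taken from earlier work, and 226 of them passed the filter. Their median log2 ratio was -0.47, against 0.08 for the 4059 tested genes outside the list, and 67 were 2-fold lower while 4 were 2-fold higher. These genes were kept in the study for being found in these cells, so the list is no independent evidence of its own direction. Inducible genes made up 5.27% of the tested genes, 35.6% of the 2-fold lower genes and 3.51% of the 2-fold higher genes. The remaining 121 lower and 110 higher genes lay outside the inducible classes. Class medians ranged from -0.25 in class B to -0.79 in class F, where 18 of 68 genes passed the filter. At 2-fold lower were 6 of these 18 and, in class D, 18 of 42 tested genes, against 4.39% of all tested genes.

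Chemokines, secreted proteins that draw leukocytes to a site of infection, included the 2 most abundant of all genes at 2-fold lower, Ccl4 and Ccl2. All 13 tested members of the list of 22 were below 0, against 43.5% of all tested genes, with a median of -1.43. Of these, 10 were at least 2-fold lower, against 4.39% of all tested genes. Ccl2, which attracts monocytes, was at 7013 CPM (6864 to 7165) in wild-type and 1900 CPM (1824 to 1978) in Rad21-/- cells, a log2 ratio of -1.88. The wild-type level lay between 6175 and 7840 CPM in the 4 pools and the Rad21-/- level between 1611 and 2119, so the pools did not overlap. Among all tested genes, pools did not overlap with lower Rad21-/- values for 321 (7.49%). Ccl7, its neighbour on chromosome 11 (chr11:82045712-82047525) with a similar attractant role, went from 3008 to 586 CPM, a log2 ratio of -2.36.

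The other tested members ran from -2.64 to -0.29. The neutrophil attractants Cxcl2 and Cxcl3 were at -1.43 and -2.33, but Cxcl1, which acts on the same receptor, was at 2294 CPM (2209 to 2382) and 1871 CPM (1796 to 1949), a log2 ratio of -0.29. Ccl4 and Ccl3, inflammatory chemokines of macrophages, were at -1.55 and -0.95. Their RefSeq coordinates overlap (Ccl4 chr11:83648624-83664683, Ccl3 chr11:83647843-83649378), so reads of one could be counted for the other. Lgals3, galectin 3, which is no chemokine, was the next most abundant gene at 2-fold lower after Ccl4 and Ccl2, at 4901 and 2277 CPM, a log2 ratio of -1.11. Among chemokines Ccl6, which macrophages make without LPS, was the lowest of the tested members at -2.64, from 399 to 64.1 CPM. Ccl24, under the filter, had 1 UMI in wild-type and 23 in Rad21-/- cells.

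The list of cytokines and secreted mediators had 14 tested members of 32, with a median of -0.98. Of these, 7 were at 2-fold lower, against 4.39% of all tested genes, and none at 2-fold higher. Il1rn, the soluble antagonist of the interleukin 1 receptor, was the lowest at -2.34. Tnf, the early inflammatory cytokine, was at 3058 CPM (2960 to 3159) in wild-type and 1160 CPM (1101 to 1221) in Rad21-/- cells, a log2 ratio of -1.40, and the pools did not overlap. Il1b went the other way at 0.27 with 3 of 4 pools higher, and Tgfb1, an anti-inflammatory cytokine, was at 0.85 with all 4 pools higher. Irg1, the enzyme that makes itaconate, was at 1189 and 276 CPM, a log2 ratio of -2.11. Ch25h, which makes 25-hydroxycholesterol, was at 103.6 CPM (86.1 to 123.5) in wild-type and 12.02 CPM (6.73 to 19.8) in Rad21-/- cells, a log2 ratio of -3.11, and at -4.47 when 1 of the 4 pools was left out.

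Interferon-stimulated genes encode sensors and effectors of antiviral defence. Of 59 genes on the list, 33 passed the filter, with a median of -1.06. Of these, 31 were below 0, against 43.5% of all tested genes, and 20 were at least 2-fold lower, against 4.39%. Oasl1, which restrains Irf7 translation, was the lowest at -3.05, from 193 CPM (168.8 to 219) to 23.2 CPM (15.6 to 33.4). Rsad2, the antiviral enzyme viperin, was at 828 CPM (777 to 881) and 206 CPM (181 to 233), a log2 ratio of -2.01. Isg15, a ubiquitin-like modifier, was at 892 and 366 CPM, a log2 ratio of -1.28. The lowest wild-type pool was above the highest Rad21-/- pool for each of these 3 genes. The 2 members above 0 were Slfn2 at 0.16 and Samhd1 at 0.10, both with 1 pool in the opposite direction.

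Upstream members of the interferon pathway did not move as a block. Ifnb1, the interferon that macrophages secrete first, was below the filter, with 55 UMIs in 18.8% of wild-type cells and 2 UMIs in 1.09% of Rad21-/- cells, a log2 ratio of -4.84 (-7.92 to -2.92). The factors Irf7 and Irf9, themselves interferon-stimulated, were at -1.88 and -1.14. Ifnar2, a receptor chain, was at 0.16, Jak1, its kinase, at 0.34, and Irf1, an early LPS-induced factor, at 0.29. Socs3, a feedback inhibitor of cytokine receptors, was at 0.33.

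The interferon-stimulated response element (ISRE), through which interferon acts on its target genes, was looked for as a pair of GAAA blocks set apart by any 2 bases, on both strands in the 250 bases before RefSeq gene starts (GRCm38.p6). It was in the windows of 11 of the 25 interferon-stimulated genes that were tested and had an entry (44.0%), of 17 of 140 genes at 2-fold lower (12.1%), of 4 of 88 genes at 2-fold higher (4.55%) and of 4.09% of the 2909 tested gene entries. These groups overlap, since interferon-stimulated genes at 2-fold lower, such as Ifit3 and Isg15, count in both. The 12.1% is therefore not separate from the 44.0%. Of all 32851 windows, 2.98% held the element. The median log2 ratio was -1.25 for the 11 interferon-stimulated genes with the element and -1.01 for the 14 without it. The 5 with the lowest ratio among those that hold the element are shown with it in capitals. They were chosen for their low ratios, so it follows from the choice that all 5 were lower.
Ifit3 (chr19:34583279-34583528, + strand): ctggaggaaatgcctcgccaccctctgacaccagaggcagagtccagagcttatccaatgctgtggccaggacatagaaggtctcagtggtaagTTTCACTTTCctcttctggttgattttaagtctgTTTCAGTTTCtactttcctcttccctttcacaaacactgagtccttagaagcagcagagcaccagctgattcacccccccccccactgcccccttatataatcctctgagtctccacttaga
Ifit1 (chr19:34640639-34640888, + strand): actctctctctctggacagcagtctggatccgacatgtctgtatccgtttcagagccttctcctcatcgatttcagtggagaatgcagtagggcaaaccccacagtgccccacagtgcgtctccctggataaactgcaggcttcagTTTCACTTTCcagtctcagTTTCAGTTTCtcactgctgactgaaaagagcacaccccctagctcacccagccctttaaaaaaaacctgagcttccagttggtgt
Rsad2 (chr12:26456453-26456702, - strand): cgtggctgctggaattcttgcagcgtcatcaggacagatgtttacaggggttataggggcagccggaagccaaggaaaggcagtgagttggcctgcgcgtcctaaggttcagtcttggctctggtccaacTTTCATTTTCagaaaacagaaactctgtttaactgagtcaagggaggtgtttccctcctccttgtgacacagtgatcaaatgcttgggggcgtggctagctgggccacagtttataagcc
Oas3 (chr5:120777660-120777909, - strand): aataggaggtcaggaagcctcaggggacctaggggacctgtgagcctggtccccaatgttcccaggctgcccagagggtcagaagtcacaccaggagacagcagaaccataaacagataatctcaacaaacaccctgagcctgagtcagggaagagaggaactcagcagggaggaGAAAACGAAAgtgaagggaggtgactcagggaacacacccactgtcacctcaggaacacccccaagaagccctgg
Isg15 (chr4:156200819-156201068, - strand): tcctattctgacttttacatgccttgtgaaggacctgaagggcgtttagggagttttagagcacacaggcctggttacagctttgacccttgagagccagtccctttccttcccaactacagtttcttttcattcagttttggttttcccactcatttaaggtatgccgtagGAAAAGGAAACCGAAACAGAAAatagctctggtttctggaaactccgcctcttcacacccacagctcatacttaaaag

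Ifit3 held 2 matches. The element lay 104 and 85 bases before the start in Ifit1, 120 bases in Rsad2 and 75 bases in Oas3, counted from its first letter as printed. Isg15 held 3 overlapping matches between 78 and 66 bases. Log2 ratios of Ifit3, Ifit1 and Oas3 were -2.05, -2.02 and -1.30. The NF-kappaB motif, searched as GGG and CC set apart by any 5 bases, was in 67.9% of the lower, 65.9% of the higher and 67.7% of all tested entries, and the AP-1 motif TGANTCA in 12.1%, 10.2% and 6.46%. The motif searched for CTCF, which is CCA, AG and GGC each set apart by any 2 bases, was in 2.86%, 3.41% and 3.06%. The CRE TGACGTCA was in 3.57%, 1.14% and 2.85%, and TTTNGCGC, for E2F, in 4.29%, 0 and 2.44%. A match is a string of letters and was not tested for binding.

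Genes of class I antigen presentation, which include interferon targets, had ratios from -1.70 for H2-Q7, a non-classical heavy chain, to -0.18 for H2-D1. All 11 tested of 20 listed genes were below 0, against 43.5% of all tested genes, with a median of -0.75. Of these, 5 were at least 2-fold lower, against 4.39% of all tested genes. B2m, the invariant chain of class I molecules, was at 4615 CPM (4494 to 4738) in wild-type and 2262 CPM (2180 to 2347) in Rad21-/- cells, a log2 ratio of -1.03. Its pools overlapped, since wild-type pools ranged from 3471 to 6062 CPM and Rad21-/- pools from 1144 to 3804, but the ratio was below 0 within each pool, from -1.60 to -0.67. The classical heavy chain H2-K1 was at -0.37, and the immunoproteasome subunit Psmb9 at -1.42.

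Genes of G2 and mitosis were mostly lower. Of 48 genes of G2 and mitosis, 14 passed the filter, with a median of -1.59, and 11 of these were at least 2-fold lower, against 4.39% of all tested genes. A member can pass the filter through its level in wild-type cells alone, so the count covers only members with that many UMIs. Top2a, the topoisomerase of dividing cells, was at 128.6 CPM (109.1 to 151) in wild-type and 24.03 CPM (16.2 to 34.3) in Rad21-/- cells and was found in 32.6% and 10.3% of cells. Mki67, the proliferation marker Ki-67, was at 103 and 28.8 CPM and in 35.9% and 16.3% of cells. Leaving out 1 pool moved the log2 ratio of Top2a from -2.42 to -3.50. Of 38 genes of G1 and S phase, 6 passed the filter, with a median of -0.69. Of these, 3 were at least 2-fold lower, against 4.39% of all tested genes, and 2 were above 0. Cyclin D1 (Ccnd1), which drives entry into the cycle, was at -2.21, and Pcna, the replication clamp, at -1.60, though its reads may be shared with the pseudogene Pcna-ps2. The kinases Cdk6 and Cdk4, partners of D cyclins, were at -1.07 and 0.44.

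The largest difference among genes that passed the filter was a histone. Hist1h2ap, an H2A gene expressed in S phase, had 475 UMIs in 22.7% of wild-type cells and 5 UMIs in 2.72% of Rad21-/- cells, a level of 397 CPM (362 to 434) against 4.01 CPM (1.30 to 9.35). Wild-type cells that held it had a mean of 11.6 UMIs, and Rad21-/- cells had 1 each. Hist1h2aa at -4.01 followed it from cell to cell (r = 0.75 over 365 cells), and these H2A copies may share reads. Leaving out 1 of the 4 pools moved Hist1h2aa to -5.53, leaving out another moved Hist1h2ap to -7.54, and with all wells retained Hist1h2ap was at -4.30. The linker histones Hist1h1b and Hist1h1e were at -3.41 and -2.28. Hist1h2bc, by contrast, was higher at 1.58 and Hist1h1c at 0.83. Transcripts of replication-dependent histones mostly lack a poly(A) tail, and the method captures poly(A), so these levels are those of the tailed fraction.

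**Figure D2:**
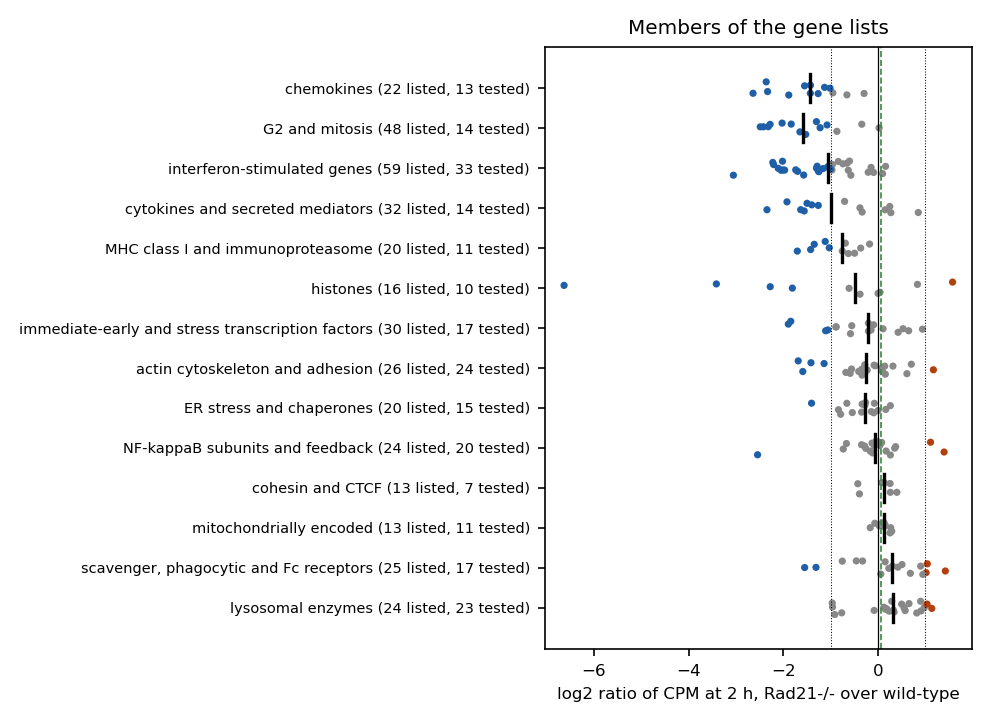
Log2 ratio at 2 h (horizontal axis) of the tested members of 14 gene lists, with each point a gene (blue and orange at 2-fold or more), black bars the median of the list, dotted lines 2-fold and the green dashed line the median of all tested genes, 0.06. Chemokines, genes of G2 and mitosis and interferon-stimulated genes lie mostly to the left, at medians of -1.43, -1.59 and -1.06, and lysosomal enzymes mostly to the right of 0, at a median of 0.33.

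Among the genes at 2-fold higher, Sepp1, which encodes selenoprotein P, a secreted carrier of selenium, was the most abundant. It was at 695 CPM (648 to 744) in wild-type and 3417 CPM (3316 to 3521) in Rad21-/- cells, a log2 ratio of 2.30 and a fold of 4.92. Ratios in the 4 pools lay between 2.16 and 2.43. Nearly every cell of both genotypes held it, 96.1% and 99.5%, and the mean in positive cells was 4.78 and 23.3 UMIs. Other abundant higher genes were Serinc3 at 1.61, Rnase4, a secreted ribonuclease, at 1.79 and Gas6, which links dying cells to the receptors Axl and Mertk on phagocytes, at 1.30.

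The highest ratio among genes that passed the filter was that of Ighm, the heavy chain of immunoglobulin M (chr12:113418826-113422730). It had 18 UMIs in 8.84% of wild-type cells and 195 UMIs in 45.1% of Rad21-/- cells, a log2 ratio of 3.38 (2.68 to 4.16). The other B cell genes in the matrix, Pax5 and Ms4a1, had 19 UMIs in wild-type and 30 in Rad21-/- cells together. Ltc4s, the enzyme that makes leukotriene C4, was at 13.4 CPM (7.64 to 21.7) and 113.8 CPM (95.8 to 134), a log2 ratio of 3.09, or 3.84 when 1 pool was left out. It was found in 8.29% and 43.5% of cells. Alox5ap, which acts before it in leukotriene synthesis, was at -0.78.

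Lysosomal genes were higher by a small margin. Of 23 tested of 24 listed, 18 were above 0, against 56.5% of all tested genes, with a median of 0.33. At least 2-fold higher were 2, against 2.66% of all tested genes, and 13 were higher in all 4 pools. Among all tested genes, 872 (20.4%) were higher in all 4 pools. Hexa, a hexosaminidase, was at 453 CPM (415 to 492) and 995 CPM (940 to 1052), a log2 ratio of 1.14, and Lamp1, a membrane protein of lysosomes, at 962 CPM (907 to 1019) and 1975 CPM (1897 to 2054), 1.04. Cathepsin D (Ctsd) was at 0.90. In the other direction, cathepsin S (Ctss) was at -0.97 and the lysozymes Lyz1 and Lyz2 at -0.96 and -0.91, with all 4 pools lower, and these 2 lysozymes may share reads.

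Further higher genes outside that list also encode proteins of lysosomes. Slc17a5, which exports sialic acid, was at 2.00, Pla2g15, a lysosomal phospholipase, at 1.84, and Sort1, a sorting receptor, at 2.35. Naglu and Hgsnat, which degrade heparan sulphate, were at 1.10 and 1.28. These 5 were picked after their values were seen, partly from the 15 highest genes.

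Receptors for uptake went both ways. Of 17 tested scavenger, phagocytic and Fc receptors, 12 were above 0, against 56.5% of all tested genes, with a median of 0.31. In all 4 pools 10 were higher and 4 lower, against 20.4% and 15.7% of all tested genes. By at least 2-fold, 3 were higher and 2 lower, against 2.66% and 4.39%. Trem2, a receptor for lipids and apoptotic cells, was at 446 CPM (409 to 485) and 918 CPM (866 to 973), a log2 ratio of 1.04, and its signalling adaptor Tyrobp was at 0.90. Scarb1, the receptor for high-density lipoprotein, was at 1.42. The inhibitory receptors Fcgr2b and Lilrb4a were at -1.55 and -1.31.

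The tetraspanin Cd63, a membrane protein of late endosomes, was at 680 and 1530 CPM, a log2 ratio of 1.17. The pseudogene Cd63-ps was at 1.11, and it lies within Hsd17b4, whose counts went with its own from cell to cell (r = 0.96 over 365 cells). Reads of these 3 genes may have been shared. The same holds for Gm17268 at -2.14, for which the most alike gene was Ccl2, and for Cx3cr1 at -0.99, which lies near Csrnp1 and followed it (r = 0.86).

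The 4 inducible genes at least 2-fold higher without Rad21 were Cd69, Fam26f, Nfkbid and Bcl3. Cd69, an early activation antigen, was at 30.9 CPM (21.8 to 42.6) in wild-type and 136.98 CPM (117 to 159) in Rad21-/- cells, a log2 ratio of 2.15, and was found in 17.7% and 41.3% of cells. Nfkbid and Bcl3, nuclear members of the family of NF-kappaB inhibitors, were at 1.40 and 1.11. Wild-type levels of Nfkbid in the 4 pools, 19.3 to 45.4 CPM, lay below all Rad21-/- levels, 62.9 to 99.3 CPM. Among all tested genes, pools did not overlap with higher Rad21-/- values for 314 (7.33%).

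The NF-kappaB list of 20 tested genes, which holds Nfkbid and Bcl3, had a median of -0.06. The subunits Rela, Nfkb1 and Rel were at 0.26, 0.08 and -0.16, and the inhibitor Nfkbia at -0.35. Peli1, a ubiquitin ligase of Toll-like receptor signalling, was the one member at 2-fold lower, at 308 CPM (278 to 341) and 52.9 CPM (40.9 to 67.3), a log2 ratio of -2.54. Among LPS sensors, Cd14 was at 1872 and 502 CPM, while Tlr4 itself was at -0.51, its adaptor Myd88 at -0.08 and Tlr2 at 0.43. Of 17 early transcription factors, 4 were at least 2-fold lower, against 4.39% of all tested genes. Among these 4 were Id2 at -1.84 and Cebpb at -1.11, and Jun was the highest of the 17 at 0.94.

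Mitochondrial and ribosomal genes differed little. The 11 tested mitochondrial transcripts ran from -0.16 to 0.29 and the 79 ribosomal protein genes had a median of 0.19. Rpl30 was the one ribosomal gene past 2-fold, at 651 CPM (606 to 698) and 177.8 CPM (155 to 203), a log2 ratio of -1.87. It lies on chromosome 15 within 20 Mb of Rad21, where 39 genes were tested, none was 2-fold higher and 3 were 2-fold lower, the others being Lrp12 and Rnf19a. Among all tested genes 2.66% were 2-fold higher and 4.39% 2-fold lower. The median log2 ratio of the 39 genes was 0.015. The ratio of Rpl30 was -1.79 in untreated and -1.80 in 8 h cells. Of 24 tested genes of the actin cytoskeleton and adhesion, 16 were below 0, against 43.5% of all tested genes, with a median of -0.25. In all 4 pools 12 were lower, against 15.7% of all tested genes. By at least 2-fold, 4 were lower, against 4.39%, and 1, Cd63, was higher, against 2.66%. Actb was at -0.34, and the lowest were Marcksl1 at -1.68, which may share reads with BC048502, and Flna at -1.59.

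The share of cells with at least 1 UMI moved with the sums. It was larger in Rad21-/- cells for every gene at 2-fold higher and smaller for all but 2 of the 188 lower genes, and for these 2 it was equal. Among all tested genes it was larger for 2369 and smaller for 1894 of 4285. When each cell was thinned to 3900 UMIs, which left 157 wild-type and 150 Rad21-/- cells, the share was larger for every higher gene, and among the 188 lower genes it was smaller for all but 3 and larger for 1 of these 3. For Peli1 it was 75.1% (interval 68.2 to 81.2) in wild-type and 26.1% (19.9 to 33.1) in Rad21-/- cells, or 59.2% and 16.7% after thinning.

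The mean UMI number in positive cells was larger in Rad21-/- cells for every gene at 2-fold higher, and smaller for 182 and larger for 6 of the 188 lower genes. Among all tested genes it was larger for 2641 and smaller for 1638. After thinning it was larger for all but 4 of the higher genes and larger for 11 of the lower genes. A gene called on its sum has to differ in the share, in this mean or in both. The mean was 2.71 and 1.38 for Peli1, 46.4 and 13.0 for Ccl2, which 100% and 98.9% of cells held, and 6.08 and 2.32 for Rsad2. In sparse counts this mean cannot be lower than 1, which limits how far it can differ for rare transcripts such as Ifnb1, at 1.62 and 1.

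Of the 13 genes the study followed by single-molecule RNA imaging, 11 passed the filter and 7 of them were at least 2-fold lower, against 4.39% of all tested genes. Beside Peli1, Tnf and Ifit1 these included Il12b, a subunit of interleukin 12, at -1.50, Cxcl10 at -1.26 and Sertad2 at -1.20. Il12b was found in 28.2% of wild-type and 16.8% of Rad21-/- cells. Prdm1 was at -0.89 and Atf3 at -0.20. Cd40, a co-stimulatory receptor, was above 0, at 123.6 CPM (104.5 to 145.2) and 183 CPM (160 to 209), a log2 ratio of 0.57 with 3 of 4 pools higher. Egr2, under the filter, had 58 and 28 UMIs.

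Within the 4 pools, all but 4 of the higher genes were higher in every pool, against 20.4% of all tested genes. Pools did not overlap for 94 of them, against 7.33%. Of the 188 lower genes, 183 were lower in every pool, against 671 (15.7%) of all tested genes, and 160 had pools that did not overlap, against 7.49%. Cells of these pools made up most of the sums by which the genes were called, so agreement in direction is largely built in. It is no independent evidence, and the share over all tested genes is no fair comparison. The pools also share the cultures from which their cells were sorted, so they repeat the library preparation and not the biology. The spread between pools was wide for genes with few UMIs. Top2a, for example, ranged from -3.55 to -1.25 and Slamf7 had 1 pool well below the other 3.

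**Figure D3:**
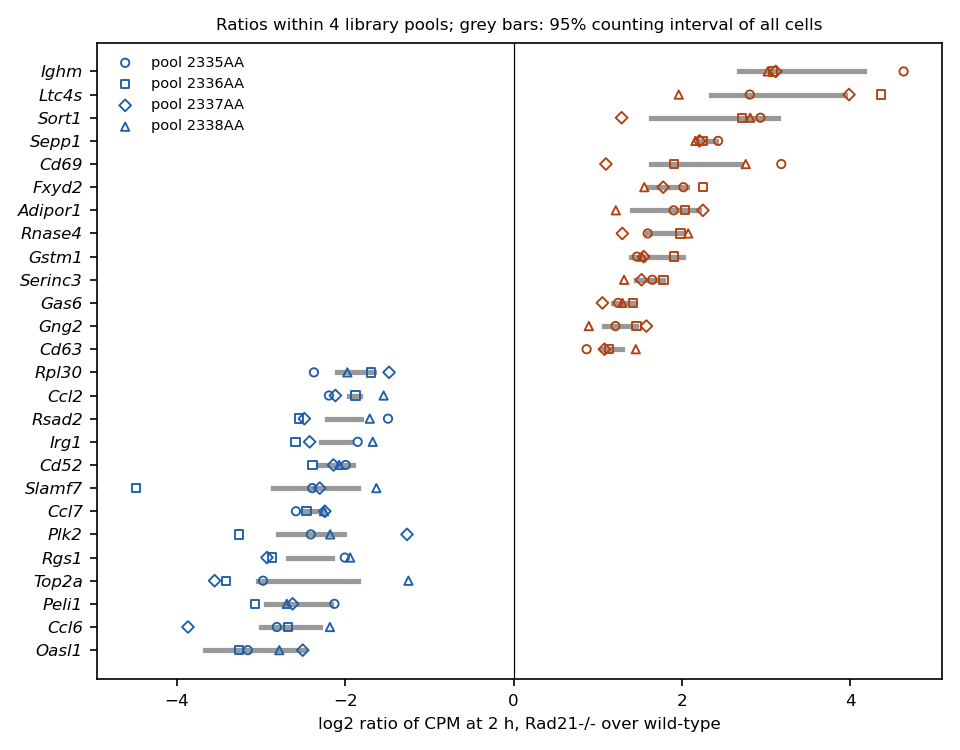
Log2 ratios of 26 genes at 2 h (horizontal axis) within each of the 4 library pools (symbols), with grey bars for the 95% counting interval of the ratio over all cells. All symbols of a gene lie on 1 side of 0, tightly for Sepp1 (2.16 to 2.43) and widely for Top2a (-3.55 to -1.25). Many of these genes were named for having 1 direction in all 4 pools, so for them this was fixed by the choice.

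Nearly all genes past 2-fold at 2 h had a ratio in the same direction before LPS. Most of the lower genes but only a minority of the higher genes were past 2-fold untreated. The untreated and 2 h comparisons share no sample. Of the 188 lower genes, 184 were below 0 in untreated cells, against 51.9% of all tested genes, and 127 were at least 2-fold lower, which is 67.6% of the 2 h list and 63.2% of the 201 (4.69%) genes at 2-fold lower in untreated cells. Of the higher genes, 110 were above 0 in untreated cells, against 48% of all tested genes, and 3 were below. By at least 2-fold, 37 of them were higher untreated, which is 32.5% of the 2 h list and 71.2% of the 52 (1.21%) genes at 2-fold higher in untreated cells. Across 4281 genes the ratios untreated and at 2 h had a Pearson r of 0.73 and a Spearman rho of 0.65, as a description, since genes are not replicates. No gene was 2-fold apart in opposite directions at these times.

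**Figure D4:**
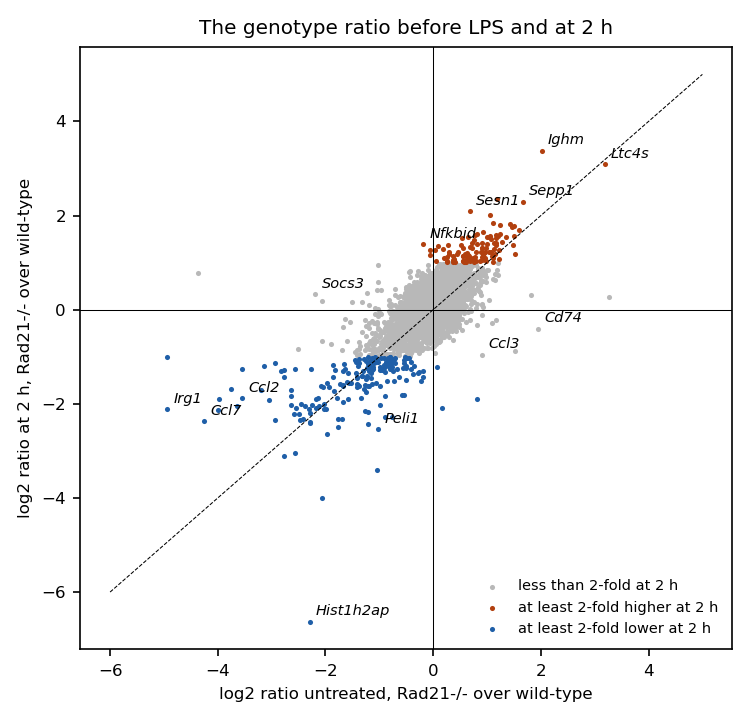
Log2 ratio of each tested gene in untreated cells (horizontal axis) and at 2 h (vertical axis), with genes at 2-fold or more at 2 h in colour and the dashed line marking equal ratios. Irg1, Ccl7 and Ccl2 lie far to the left, at -4.94, -4.25 and -3.56 untreated, and Hist1h2ap lies well under the line, at -2.29 untreated and -6.63 at 2 h.

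For some chemokines the ratio was further from 0 before LPS than after. Ccl2 was at -3.56 untreated and -1.88 at 2 h, and Ccl7 at -4.25 and -2.36. Ccl3 crossed 0, from 0.91 untreated to -0.95 at 2 h. In contrast the ratio of the G2 and mitosis list had a median of -0.88 untreated, -1.59 at 2 h and 0.34 at 8 h. Peli1 went from -1.02 to -2.54. Of the 13 tested chemokines, 9 had more than 3 UMIs in each untreated sample, so some untreated ratios of that list rest on few UMIs.

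There were 13 genes past 2-fold at 2 h whose untreated ratio lay within 0.25 of 0. Inducible genes among them were Bcl2l11, a pro-apoptotic member of the Bcl2 family, at 0.06 untreated and -1.22 at 2 h, Csrnp1 at -0.19 and -1.31, Mxd1, an antagonist of Myc, at -0.19 and -1.44, Rnf19a at -0.23 and -1.52, and Nfkbid at -0.19 and 1.40. These 5 had 6 to 40 UMIs in each untreated sample, so the untreated ratio is imprecise. The 13 genes were chosen after their values were seen.

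Many of the higher genes were lower in wild-type cells at 2 h than untreated. Among those with more than 3 UMIs in each untreated sample, 93 were below their untreated level in wild-type and 43 in Rad21-/- cells, with a median log2 change of -0.44 and 0.04. Over all 4265 tested genes with such a ratio, 2370 and 1977 were below, with medians of -0.06 and 0.03. These changes use the same 2 h samples that chose the genes and are a description. Sesn1, a p53 target that restrains growth signalling, went from 90.6 to 27.6 CPM in wild-type cells and from 146 to 118 CPM in Rad21-/- cells, and its ratio from 0.68 to 2.10. Sesn1 was the highest of the 9 tested p53 targets, whose median at 2 h was 0.09, with 4 below 0. By at least 2-fold, 1 p53 target was higher and 1, Plk2 at -2.39, was lower, against 2.66% and 4.39% of all tested genes.

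**Figure D5:**
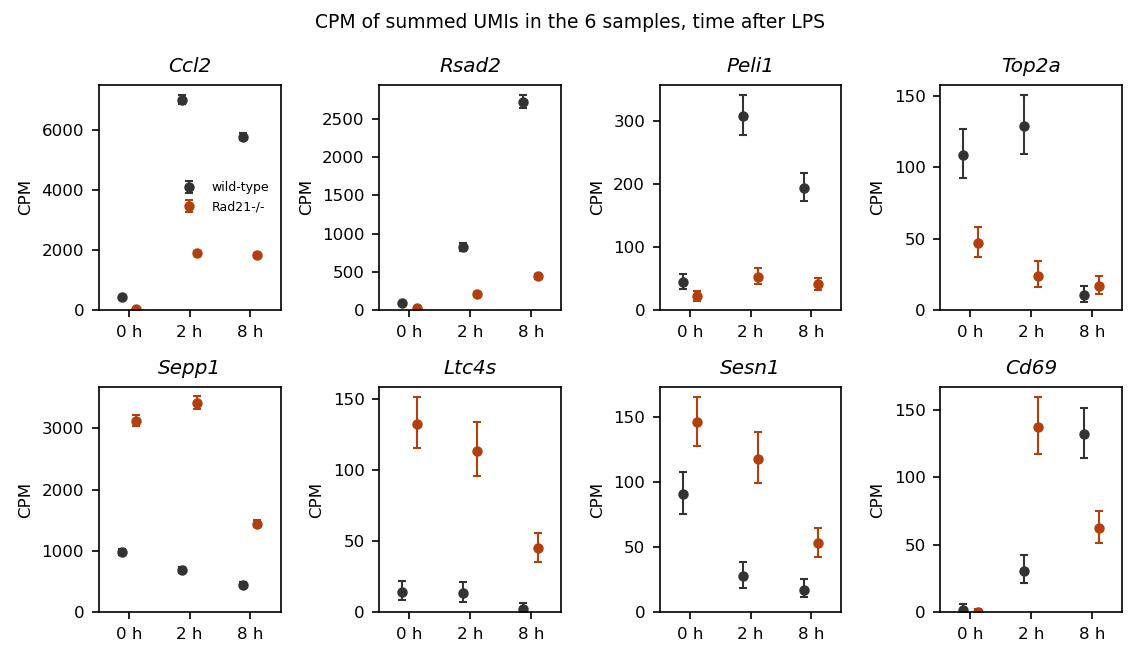
CPM of 8 genes in the 6 samples, by time after LPS (0 h is untreated), with 1 point per sample and bars for the exact 95% Poisson interval. Ccl2, Rsad2 and Peli1 had lower Rad21-/- values at every time, Sepp1, Ltc4s and Sesn1 higher values at every time, and Cd69 was higher in Rad21-/- cells at 2 h (136.98 against 30.9 CPM) and lower at 8 h (62.3 against 131.7 CPM).

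At 8 h the direction was mostly kept. Of the 188 lower genes 32 were above 0, against 68.7% of all tested genes, and 84 were at least 2-fold lower at 8 h, against 167 (3.9%) of all tested genes. Of the higher genes 8 were below 0, against 31.3% of all tested genes, and 69 were at least 2-fold higher, against 292 (6.81%). The median of all tested genes at 8 h was 0.24, so that time is centred above 0. Ltc4s was at 4.13 and Ighm at 3.58 at 8 h, and Oasl1 at -2.75. Hist1h2ap, at 14.8 and 16.1 CPM, no longer differed by 2-fold.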

How the data were processed

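Single macrophages were sorted into 384-well plates and sequenced by MARS-seq, a 3′ method with UMIs. The authors demultiplexed reads by pool and cell barcode, mapped them with GEMTools to GRCm38.p4 with a Gencode annotation, discarded wells with many spike-in reads, few mapped reads or very many reads, and deposited a table of raw UMI counts, with genes in lines and cells in columns. Strand use in counting is not given in the sources used here. Cells were assigned to samples from column names, and 0 columns were left unassigned.

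UMIs were summed per sample over wells of at most 25000 UMIs and scaled to CPM. Ratios were computed for genes with at least 100 UMIs over both 2 h samples. With 1 sample per group no test was run. Poisson, Clopper-Pearson and conditional ratio intervals at 95% cover counting error only. Ratios within 4 pools, shares at 3900 UMIs per cell and the untreated and 8 h ratios were computed likewise. The step was tested on simulated counts with known changes. Python 3.11.15, numpy 2.4.6, pandas 2.3.3, scipy 1.17.1 and matplotlib 3.10.9 were used, and edgeR 4.0.16 and DESeq2 1.42.0 in R 4.3.3 for alternative scaling. No doublet caller was run, since cells were sorted singly. Coordinates and promoter sequences are RefSeq's for GRCm38.p6, matched by symbol for 16782 genes and, for promoters, 2913 of 4285 tested genes.

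The genes, lists and comparisons were chosen with earlier results of these data known. Named genes were Rad21, the 15 highest and 15 lowest ratios with 1 direction in all 4 pools, the 8 highest and 8 lowest with at least 1000 UMIs, the 3 highest and 3 lowest of each list, the genes imaged by the study and list members needed to say what a list holds. Genes named outside this rule were chosen after their values were seen. Alternatives were other well, gene and fold limits, equal weight per cell or pool, each pool left out, other scalings and thinning.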

Additional observations from a re-analysis of the deposited data

Results flagged for a closer look

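The 4 genes Cd69, Bcl3, Zyx and Tmpo went past 2-fold in opposite directions at 2 h and at 8 h, and the difference between these times was not tested. The log2 ratio of Cd69 was 2.15 at 2 h and -1.08 at 8 h, that of Bcl3 1.11 and -1.21, that of Zyx, a protein of focal adhesions, 1.18 and -2.11, and that of Tmpo, a protein of the nuclear envelope, -1.27 and 1.26. The 2 h and 8 h comparisons share no sample. In wild-type and Rad21-/- cells, Cd69 was at 30.9 and 136.98 CPM at 2 h and 131.7 and 62.3 CPM at 8 h, and Zyx at 61.0 and 137.8 CPM at 2 h and 217.2 and 50.2 CPM at 8 h. Tmpo was at 106.1 and 44.1 CPM at 2 h and 17.4 and 41.5 CPM at 8 h.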

How the results depend on the processing

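With all wells retained, 63 genes were at least 2-fold higher and 430 lower, the median log2 ratio of the inducible genes was -0.76 and that of genes outside the list was -0.14, opposite in sign to the main value of 0.08. A few wells then held 45.5% of the wild-type UMIs. A filter of at least 50 UMIs gave 209 higher and 351 lower genes, one of at least 500 UMIs 19 and 52, and a minimum of 1 UMI in each sample 1327 and 1939, and these filters change how many genes are tested. A limit of 1.5-fold gave 448 and 409. The median outside the inducible list was 0.14 with at least 500 UMIs, 0.0040 with 1 UMI in each sample and 0.018 when CPM was taken over genes outside the list. Equal weight per cell or per pool, TMM scaling, DESeq2 size factors and thinning kept both counts within 1.5 times and both medians within 1 SD of their values over 4 pools. Leaving out single pools gave at most 141 higher and 176 to 220 lower genes. Of 204 genes named by the rule and tested, none changed sign among the 87 past 2-fold under these 11 settings, and with all wells 59 ratios left their counting interval and 6 of the 87 came back inside 2-fold. No paired analysis was possible because each genotype and time was a single sample. Depth limits genes under 100 UMIs, such as Ifnb1 and Egr2, and shares near 0. One sample per group, the choice of lists with results known and unstated numbers of mice limit every value above.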
